A study of Mus musculus with 12 samples.

Results

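Solute carriers (SLC) are membrane transport proteins, named by family from Slc1 upward, with the organic anion transporters named Slco. They were taken from the deposited tables by symbol, as genes whose name starts with Slc and a digit or with Slco, with Slc7a3 left out. Of 2718 gene names in the expression and splicing tables, 60 are solute carrier genes. The expression table of neural progenitor cells (NPC) holds 55 of them and that of mouse embryonic fibroblasts (MEF) holds 3, with 0 in both. Splicing events are listed in 4, all in NPC, and 2 of these 4, Slc30a9 and Slc25a14, are in no expression table. The annotation has 384 protein-coding solute carrier names, so 324 are in no table.

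The RNA came from Prmt5 F/FER cells on a mixed C57BL/6 X 129S1/SvlmJ background, in which 4-hydroxytamoxifen (4-OHT) removes Prmt5, an arginine methyltransferase gene whose protein acts on spliceosomal Sm proteins and histones. NPC were grown as neurospheres from the E14.5 cortex with epidermal and fibroblast growth factors. MEF were primary cells of the same embryonic day, treated at passage 1. Each cell type gave 3 libraries with 50 nM 4-OHT for 24 h and 3 with ethanol for 24 h. All 12 libraries carry the conditional genotype, and none is labelled as 4-OHT-treated cells without it. The labels do not say whether libraries were separate cultures or animals, what promoter drives the ER transgene, or how long after treatment RNA was taken.

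Solute carriers move nutrients, ions, transmitters and metabolites across cell and organelle membranes, driven by gradients rather than by ATP hydrolysis. Some work as pairs of proteins: the heavy subunit encoded by Slc3a2 carries light subunits of the Slc7 family, such as the leucine transporter of Slc7a5 and the cystine and glutamate exchanger of Slc7a11, to the cell surface. In the brain, astrocytes and radial glia use glutamate, glycine and bicarbonate transporters, while dividing cells draw on nucleoside, folate and glutamine transporters.

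The expression tables give 1 RPKM value (reads scaled to gene length and library size) for each arm and a Cuffdiff p-value, all as set by the authors. No spread between replicate libraries can be given for them, and library totals are not stated, so their depth is unknown. A table lists a gene when its unadjusted p is under 0.05 and its change over 1.5-fold, so every listed gene had already been selected for its change. In the text that follows, rose and fell are used for genes whose Benjamini-Hochberg adjusted p is sure to be under 0.05 with all 55341 annotated gene names counted as tested. Log2 values are 4-OHT over ethanol, recomputed from the RPKM values. Prmt5 itself was at 4.92 RPKM with 4-OHT and 33.4 with ethanol in NPC, and at 3.76 with 4-OHT and 20.96 with ethanol in MEF. The libraries were bulk RNA, so fewer cells of a type and less RNA per cell cannot be told apart.

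Sequences of 3 of the solute carrier genes with a listed splicing event are shown here for reference. The retained intron of Slc1a5 is given whole, with the splice site dinucleotides in capitals. For Slc1a5 and Slc30a9, the donor site is given as 3 exon bases and 6 intron bases in capitals, and the acceptor site as 20 intron bases, the CAG before the exon in capitals, and 3 exon bases. The cassette exon of Slc2a9 is given in lower case throughout. These were read from GENCODE M21 transcripts matched by length. For an intron this was the summed length of the intron and its flanking exons. For the Slc2a9 exon it was the length of the exon and of its upstream intron. The 3 retained or included transcripts read were Slc1a5-202, Slc30a9-203 and Slc2a9-202.
Slc1a5 intron 7: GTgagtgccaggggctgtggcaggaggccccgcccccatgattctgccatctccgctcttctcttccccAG
Slc1a5 donor site: cctGTGAGT
Slc1a5 acceptor site: tccgctcttctcttcccCAGggt
Slc30a9 donor site: tggGTGATC
Slc30a9 acceptor site: gttcaatgcttgttttcCAGgca
Slc2a9 cassette exon: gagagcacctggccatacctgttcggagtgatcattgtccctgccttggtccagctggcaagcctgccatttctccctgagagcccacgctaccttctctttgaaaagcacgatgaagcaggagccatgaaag

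In NPC, solute carrier genes in the expression table were mostly higher with 4-OHT. Of 55 members, 41 were higher and 14 lower, a share of 74.5% higher, where 56.6% of the 2416 listed genes were higher and 43.4% lower. By the adjusted p, 24 members rose and 11 fell, 35 in all. Among all listed genes 39.2% rose and 34.6% fell, 73.8% in all. The median log2 fold change was 0.81 over the members and 0.66 over all listed genes, which follows the share that was higher. By direction the median was 0.98 over higher members and 1.00 over all higher genes, and -0.92 over lower members and -0.77 over all lower genes. Among annotated protein-coding names, 14.3% of the solute carriers and 9.77% of all genes are listed in NPC. In MEF the shares are 0.781% and 0.470%. No test of the list against other genes was run.

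The members covered a wide range of levels. With ethanol they lay between 0 RPKM for Slc5a11 and 58.2 RPKM for Slc7a5, with a median of 1.07 RPKM. Levels under 1 RPKM in both arms were found for 22 members, 18 of them higher with 4-OHT, and 7 of these 22 passed the adjusted threshold. Among all listed genes under 1 RPKM in both arms, 80.6% were higher and 34.6% passed it. Taking the higher arm of each gene, 33 members reached 1 RPKM, 23 higher and 10 lower, where 47.3% of all listed genes at that level were higher and 52.7% lower. Of the 21 members that reached 5 RPKM, 13 were higher and 8 lower, where all listed genes had 39.5% higher and 60.5% lower. Of the 11 that reached 10 RPKM, 8 were higher and 3 lower, where all listed genes had 35.0% higher and 65.0% lower. An absolute log2 fold change of 1 or more was reached by 22 members, 18 higher and 4 lower, and by 35.6% of all listed genes.

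**Figure D1:**
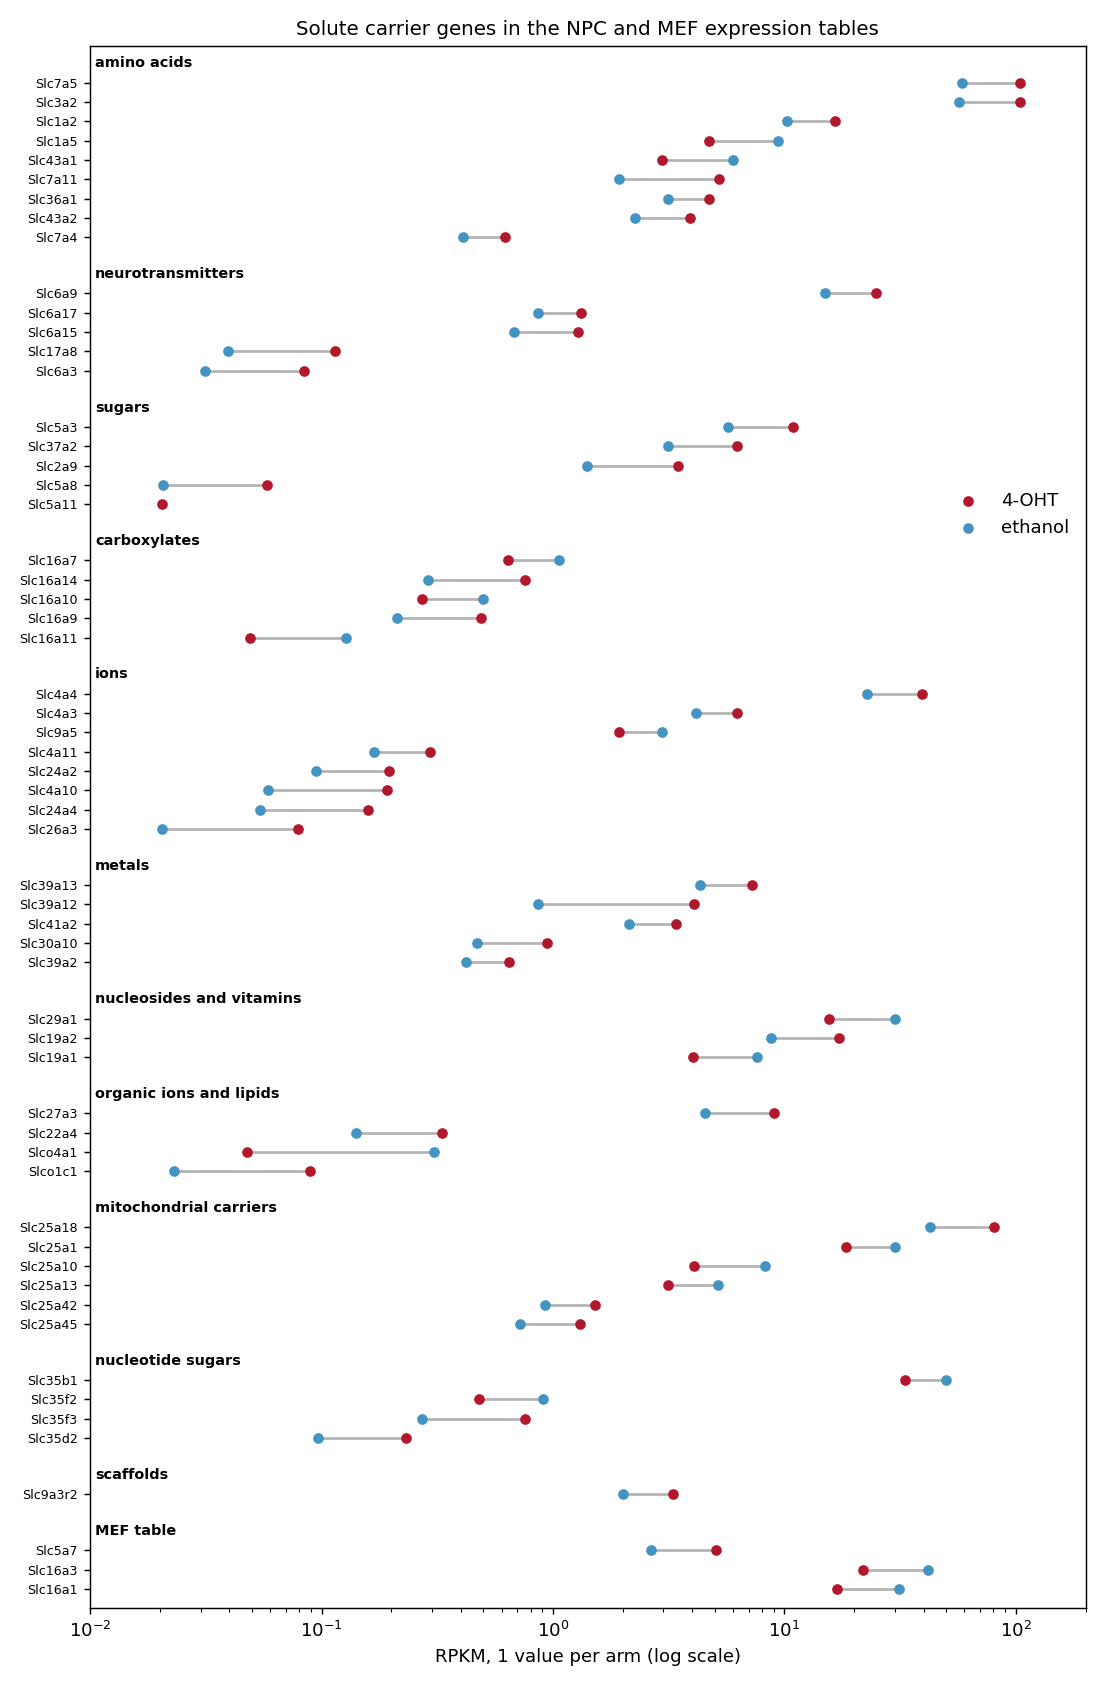
Levels of the 55 solute carrier genes of the NPC table, by substrate class, and of the 3 of the MEF table, on a log axis in RPKM. Red points are 4-OHT and blue points ethanol, 1 value per arm with no replicate error; Slc5a11 is listed at 0 with ethanol, so only its 4-OHT value is drawn.

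**Figure D2:**
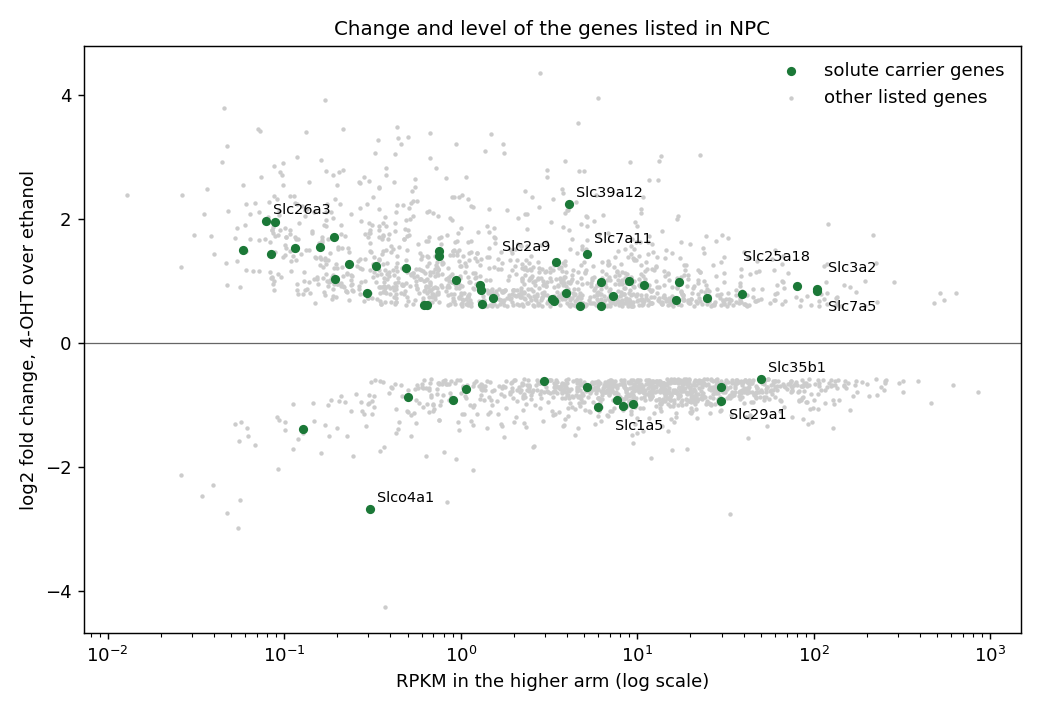
Log2 fold change of 4-OHT over ethanol against RPKM in the higher arm (log axis) for genes listed in NPC, with solute carriers in green; genes listed at 0 in an arm are not drawn. The empty band around 0 is the listing limit, and 14 solute carriers lie under it, 8 of them at 5 RPKM or more.

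Amino acid transporters included the 2 most abundant members, Slc7a5 and Slc3a2. Of 9 listed, 7 were higher and 2 lower, with 6 that rose and 2 that fell, out of 47 annotated. By comparison, 56.6% of all listed genes were higher, 39.2% rose and 34.6% fell. Slc7a5, the light subunit that imports large neutral amino acids such as leucine, stood at 104 RPKM with 4-OHT and 58.2 with ethanol, a log2 fold change of 0.84. Its heavy subunit Slc3a2 stood at 104 and 56.8 RPKM, a log2 fold change of 0.87. The level of Slc3a2 per unit of Slc7a5 was 0.999 with 4-OHT and 0.975 with ethanol, so the partners kept nearly equal RPKM.

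Slc7a11, the light subunit of the cystine and glutamate exchanger that feeds glutathione synthesis, was far less abundant and changed more, at 5.20 RPKM with 4-OHT and 1.92 with ethanol, a log2 fold change of 1.44. Slc1a2, the main glutamate uptake transporter of astrocytes, rose to 16.6 RPKM with 4-OHT, against 10.3 with ethanol. Slc36a1, a proton-coupled amino acid transporter of lysosomes and plasma membrane, was at 4.72 and 3.15 RPKM, a log2 fold change of 0.59 at the edge of the listing limit. Slc7a4 did not pass the adjusted threshold, at 0.619 RPKM with 4-OHT and 0.407 with ethanol.

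The amino acid transporters that fell were Slc1a5 and Slc43a1. Slc1a5, which exchanges glutamine and other neutral amino acids and is used by many dividing cells, was at 4.73 RPKM with 4-OHT and 9.41 with ethanol, a log2 fold change of -0.99. Slc43a1, a facilitated carrier of large neutral amino acids, was at 2.94 and 6.00 RPKM, a log2 fold change of -1.03. Its relative Slc43a2 went the other way, at 3.93 RPKM with 4-OHT and 2.26 with ethanol, a log2 fold change of 0.80. Slc43a2 per unit of Slc43a1 was therefore 1.33 with 4-OHT and 0.376 with ethanol, and the order of their levels differed between the arms.

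Amino acid transporters are also among the known targets of ATF4, the transcription factor of the integrated stress response. Of 8 such genes considered, 5 are listed in NPC: Slc7a11, Slc7a5, Slc3a2 and Slc6a9 rose and Slc1a5 fell. Among annotated protein-coding names, 14.3% of the solute carriers and 9.77% of all genes are listed in NPC, and 39.2% of all listed genes rose. These 8 genes were chosen with earlier results of these data known, and a role of ATF4 was not tested. Slc7a1, Slc1a4 and Slc38a2 are not among the listed genes. The C/EBP-ATF element TGATGNAA, through which ATF4 is known to act, was searched on both strands in RefSeq promoters of GRCm38.p6, from 250 bases before the gene start to 50 after it. Promoters were matched for 53 of the 60 members, and 1 of these 53 genes (1.89%) held it, against 4.51% of all 27025 genes with a promoter in the table. The 1 member was Slc7a11, whose promoter is shown for that reason, from 50443564 to 50443863 of chromosome 3 on the minus strand, with the matches in capitals.
Slc7a11 promoter: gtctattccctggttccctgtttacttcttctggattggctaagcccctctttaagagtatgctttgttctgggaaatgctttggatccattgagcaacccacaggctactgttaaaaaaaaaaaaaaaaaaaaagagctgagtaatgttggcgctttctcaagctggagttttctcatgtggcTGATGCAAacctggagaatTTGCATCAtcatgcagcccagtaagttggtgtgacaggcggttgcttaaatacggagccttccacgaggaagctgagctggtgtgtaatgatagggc
It held a match on each strand, starting 66 and 47 bases before the gene start. The window is short, and no match elsewhere says only that these letters are not in it.

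All 5 listed members of the neurotransmitter families were higher, and 2 of them rose, where 56.6% of all listed genes were higher and 39.2% rose. Slc6a9, the glycine transporter GlyT1 of glia, was at 24.8 RPKM with 4-OHT and 15.0 with ethanol, a log2 fold change of 0.72. Slc6a15, a sodium-coupled transporter of neutral amino acids found in neurons, was at 1.29 and 0.678 RPKM, a log2 fold change of 0.93. Slc6a17, Slc6a3 and Slc17a8 did not pass the adjusted threshold. Slc6a17, a vesicular transporter of neutral amino acids, was at 1.33 RPKM with 4-OHT and 0.863 with ethanol. The dopamine transporter Slc6a3, at 0.0840 and 0.0313 RPKM, and the vesicular glutamate transporter Slc17a8, at 0.115 and 0.0396 RPKM, were barely detected in either arm. Under 1 RPKM in both arms, 80.6% of all listed genes were higher.

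Of a list of transporters that are known astrocyte genes, those listed in NPC were higher, where 56.6% of all listed genes were higher and 39.2% rose. The list was chosen with earlier results of these data known. Its members Slc1a3, Slc6a11, Slc7a10 and Slc14a1 are not among the listed genes. Of 9 considered, 5 are listed: Slc39a12, Slc25a18, Slc4a4 and Slc1a2 rose, and Slco1c1 did not pass the adjusted threshold, at 0.0889 RPKM with 4-OHT and 0.0231 with ethanol. Slc25a18, a glutamate carrier of the mitochondrial inner membrane, was at 80.4 RPKM with 4-OHT and 42.8 with ethanol, a log2 fold change of 0.91. Slc4a4, a sodium bicarbonate cotransporter, was at 39.4 and 22.8 RPKM, a log2 fold change of 0.79. Slc39a12, a zinc importer of the ZIP family, was at 4.08 RPKM with 4-OHT and 0.864 with ethanol, a 4.72-fold difference and the largest rise among the 33 members that reached 1 RPKM.

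Markers of other cell types are listed in the same table, and their part in these changes was not tested. Among all listed genes 39.2% rose. Of 6 astrocyte markers 3 are listed and rose, with a summed level of 122 RPKM with 4-OHT and 68.9 with ethanol. Nearly all of that sum was Aldh1l1, at 118 RPKM with 4-OHT and 67.7 with ethanol. Gfap was at 1.10 and 0.221 RPKM, and Aqp4 at 2.32 and 1.00 RPKM. Of 5 oligodendrocyte markers 4 are listed and rose, at 21.8 and 7.58 RPKM in sum. Of 6 neuron markers 3 are listed, at 10.9 and 6.22 RPKM in sum, and Tubb3 and Gad1 rose. Snap25 was lower, at 0.770 RPKM with 4-OHT and 1.30 with ethanol, and did not pass the adjusted threshold. Endothelial markers numbered 2 of 6, at 0.258 and 0.146 RPKM in sum, and neither passed it. Immune markers numbered 2 of 6, at 2.0296 and 0.894 RPKM in sum, of which H2-Ab1 rose and Cd14 did not pass. No choroid plexus or fibroblast marker is listed, none of the listed markers is at 0, and of 6 progenitor markers only Hes5 is listed, and it fell, at 4.77 RPKM with 4-OHT and 15.8 with ethanol. Of a list of 7 neuron transporters 1 is listed, Slc24a2, which did not pass the adjusted threshold, at 0.195 RPKM with 4-OHT and 0.0951 with ethanol. That list does not hold Slc6a15 and Slc4a10, which are also used by neurons and rose, nor Slc6a17, Slc17a8 and Slc6a3, so it covers neuron transporters only in part. None of the 8 brain endothelium and 5 choroid plexus transporters considered is listed in NPC. These lists are partial too, so other transporters of those cells may be among the listed genes.

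Sugar transporters and the sodium-coupled Slc5 family were all higher where listed, 5 of 34 annotated, and 3 of the 5 rose. Over all listed genes 56.6% were higher and 39.2% rose. Slc5a3, which imports myo-inositol, an osmolyte, was at 10.9 RPKM with 4-OHT and 5.72 with ethanol, a log2 fold change of 0.93. Slc37a2, a sugar phosphate exchanger of the endoplasmic reticulum, was at 6.22 and 3.16 RPKM, a log2 fold change of 0.98. Slc2a9, which carries urate, was at 3.48 RPKM with 4-OHT and 1.41 with ethanol, a log2 fold change of 1.31. Slc5a8, which carries monocarboxylates, was at 0.0582 RPKM with 4-OHT and 0.0207 with ethanol, and Slc5a11, a second inositol transporter, is listed at 0.0204 with 4-OHT and at 0 with ethanol. Neither passed the adjusted threshold, and both were under 1 RPKM in both arms, where 80.6% of all listed genes were higher.

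Metal transporters were also all higher where listed, 5 of 33 annotated, and 4 of the 5 rose. The shares over all listed genes were 56.6% higher and 39.2% that rose. Beside Slc39a12 these were Slc39a13, a zinc transporter of the Golgi, at 7.24 RPKM with 4-OHT and 4.30 with ethanol, Slc41a2, of a magnesium transporter family, and Slc30a10, a manganese exporter. Slc41a2 was at 3.39 and 2.12 RPKM, and Slc30a10 at 0.944 and 0.470 RPKM. Slc39a2 did not pass the adjusted threshold, with a log2 fold change of 0.61. Slc30a10 and Slc39a2 were under 1 RPKM in both arms, where 80.6% of all listed genes were higher.

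Of 57 annotated ion transporters 8 are listed, 7 higher and 1 lower, and 3 rose, where 56.6% of all listed genes were higher and 39.2% rose. The bicarbonate family Slc4 gave 4 of these 8, out of 11 annotated, all higher. Slc4a3, a chloride and bicarbonate exchanger, was at 6.25 RPKM with 4-OHT and 4.16 with ethanol, a log2 fold change of 0.59. Slc4a10, a sodium-coupled bicarbonate transporter of neurons, was at 0.192 and 0.0586 RPKM. Slc9a5, a sodium and proton exchanger, fell to 1.93 RPKM with 4-OHT, against 2.96 with ethanol. Slc4a11, Slc24a2, Slc24a4 and Slc26a3 did not pass the adjusted threshold, and the most abundant of them, Slc4a11, was at 0.294 RPKM with 4-OHT and 0.168 with ethanol.

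Nucleoside and vitamin transporters split, with 3 of 19 annotated listed, 1 that rose and 2 that fell. Slc29a1, the equilibrative nucleoside transporter ENT1, fell to 15.6 RPKM with 4-OHT, against 30.0 with ethanol, a log2 fold change of -0.94. Slc19a1, the reduced folate carrier, fell to 4.04 RPKM with 4-OHT, against 7.63 with ethanol, a log2 fold change of -0.92. Slc19a2, a thiamine transporter of the same family, rose to 17.2 RPKM with 4-OHT, against 8.75 with ethanol, a log2 fold change of 0.98. Slc19a2 per unit of Slc19a1 was thus 4.27 with 4-OHT and 1.15 with ethanol.

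Mitochondrial carriers of the Slc25 family split as well, with 6 of 47 annotated listed, 3 higher and 3 lower. Slc25a1, the citrate carrier that exports citrate for lipid synthesis, fell to 18.4 RPKM with 4-OHT, against 30.0 with ethanol, a log2 fold change of -0.70. Slc25a10, the dicarboxylate carrier, fell to 4.08 RPKM with 4-OHT, against 8.27 with ethanol, a log2 fold change of -1.02. Slc25a13, an aspartate and glutamate carrier of the malate-aspartate shuttle, fell to 3.15 RPKM with 4-OHT, against 5.17 with ethanol. Slc25a18 was the 1 carrier that rose, while Slc25a42 and Slc25a45 did not pass the adjusted threshold, with log2 fold changes of 0.71 and 0.86. Slc25a14, which has a splicing event, is not among the genes listed for expression.

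The Slc35 family held the most abundant member that fell. Of 27 annotated 4 are listed, 2 higher and 2 lower. Slc35b1, which exchanges ATP and ADP across the membrane of the endoplasmic reticulum, was at 33.2 RPKM with 4-OHT and 49.9 with ethanol, a log2 fold change of -0.59 at the edge of the listing limit. Slc35f2 fell to 0.479 RPKM with 4-OHT, against 0.907 with ethanol, while Slc35f3 rose to 0.755 against 0.272 RPKM. Slc35d2 did not pass the adjusted threshold, at 0.233 RPKM with 4-OHT and 0.0962 with ethanol.

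Organic ion and lipid transporters numbered 4 of 62 annotated. Slc27a3, a fatty acid transport protein with acyl-CoA synthetase activity, rose to 9.02 RPKM with 4-OHT, against 4.52 with ethanol, a log2 fold change of 0.99. Slco4a1, a transporter of thyroid hormones and other organic anions, fell to 0.0478 RPKM with 4-OHT, against 0.306 with ethanol, a log2 fold change of -2.68 at a very low level. Slc22a4 and Slco1c1 did not pass the adjusted threshold. Slc9a3r2, which carries a solute carrier symbol but is a PDZ scaffold protein and not a transporter, was at 3.30 RPKM with 4-OHT and 2.01 with ethanol and did not pass it either.

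The monocarboxylate family Slc16 was listed in both cell types, but through different genes. In NPC 5 of 14 annotated members are listed, 2 higher and 3 lower, at no more than 1.07 RPKM in any arm. Slc16a14 rose to 0.756 RPKM with 4-OHT, against 0.287 with ethanol, and Slc16a9 rose to 0.490 against 0.211 RPKM. Slc16a7, the monocarboxylate transporter MCT2, was at 0.638 RPKM with 4-OHT and 1.07 with ethanol, and like Slc16a10 and Slc16a11 it did not pass the adjusted threshold.

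In MEF, 3 solute carriers are listed, 1 higher and 2 lower, and none is sure to pass an adjusted p of 0.05. Of the 111 listed MEF genes 50.5% were higher and 49.5% lower, and 1 (0.901%), a lower one, is sure to pass it. Slc16a3, the lactate exporter MCT4, was at 21.96 RPKM with 4-OHT and 41.9 with ethanol, a log2 fold change of -0.93 (p = 0.0196 in the authors' deposited table, by Cuffdiff). Slc16a1, the monocarboxylate transporter MCT1, was at 16.9 and 31.3 RPKM, a log2 fold change of -0.89 (p = 0.0214 in the authors' deposited table, by Cuffdiff). The level of Slc16a3 per unit of Slc16a1 was 1.30 with 4-OHT and 1.34 with ethanol. Slc5a7, the high-affinity choline transporter, was at 5.07 RPKM with 4-OHT and 2.65 with ethanol, a log2 fold change of 0.94 (p = 0.0145 in the authors' deposited table, by Cuffdiff). Bsg and Emb encode chaperones that bring monocarboxylate transporters to the membrane: neither is listed in MEF, and Emb is listed in NPC at 0.813 RPKM with 4-OHT and 1.37 with ethanol, without passing the adjusted threshold. No solute carrier is listed in both cell types, so no difference between them could be tested, and absence from a table does not show that a gene was unchanged.

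Other transport genes in NPC were counted beside the solute carriers. Their counts stand beside 56.6% of all listed genes that were higher and 39.2% that rose. Of 50 ABC transporters 8 are listed, all higher, and 3 rose: Abca1, a cholesterol exporter, at 4.48 RPKM with 4-OHT and 0.932 with ethanol, Abcd4 and Abcg4. Of 17 ATP-driven ion pump subunits 5 are listed, all higher, and 3 rose, among them Atp1b1 and Atp1b2, subunits of the sodium pump that maintains the gradient many solute carriers use. Atp1b1 was at 32.6 and 10.1 RPKM and Atp1b2 at 79.0 and 47.3 RPKM. Of 11 aquaporins 2 are listed, both higher, and Aqp4 rose. None of 26 V-ATPase subunits is listed. The listed members of these lists that did not pass the adjusted threshold, such as Abca13 and Atp2b2, were all under 1 RPKM in both arms, where 80.6% of all listed genes were higher.

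Splicing was listed as changed in 4 solute carrier genes, with 5 of the 255 events of the NPC table, and in none of the 71 events in MEF. All 5 had more of the longer form with 4-OHT, that is, more intron retention in 2 and more exon inclusion in 3. Of these exons, 2 are overlapping ones of Slc25a14 with the same skipped reads, which count as 1 observation. Of all listed NPC events, 96.3% of retained introns and 37.8% of skipped exons had more of the longer form. Levels are the authors' inclusion levels, the share of the longer form after correction for length, in 1 library per arm of each numbered pair, and listed pairs were selected for their difference. The 3 pair codes of the table, numbered here 1 to 3, match no label. Intervals on reads, by the exact Clopper-Pearson method at 95%, cover counting error only.

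Slc30a9, of the zinc transporter family, was the 1 member listed in all 3 pairs. Its retained intron lies at 67733469 to 67735768 of chromosome 5 in mm9, on the plus strand, 2300 bp between coding exons of 136 and 40 bp, and matches intron 10 of 16 in transcript Slc30a9-201. The inclusion level was 0.305, 0.300 and 0.364 with 4-OHT, against 0.103, 0.080 and 0.080 with ethanol. The arms did not overlap, with means of 0.323 ± 0.036 and 0.088 ± 0.013 (SD, n = 3). The exact two-sided permutation test over libraries gave p = 0.1, the smallest it can give with 3 against 3. Since all 3 pairs were listed for their difference, neither the lack of overlap nor this p is independent evidence of a change.

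Reads of the retained form differed between the arms far more than reads of the spliced form. Summed over pairs, 4129 reads with 4-OHT and 876 with ethanol came from the retained form, a 4.71-fold ratio, while 125 and 136 came from the spliced form, a ratio of 0.919. These reads are not scaled to library totals. The authors' deposited table gives p-values of 0.000454, 3.08e-11 and 2.13e-11 for pairs 1 to 3. Read from the upstream coding exon, the frame meets a TAA stop at base 82 of the intron. Slc30a9 is not listed for expression, so its level is not known from these tables.

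Slc1a5 was listed both as fallen in level and as retaining an intron. The intron, printed whole earlier, lies at 17381302 to 17381372 of chromosome 7 in mm9, on the plus strand, 71 bp between coding exons of 195 and 135 bp, and matches intron 7 of 8 in transcript Slc1a5-201. It is rich in G and C, at 66.2%, against 41.3% for the Slc30a9 intron. The inclusion level was 1 in the 2 listed libraries with 4-OHT, against 0.337 and 0.353 in those with ethanol. The spliced form had 0 of 15 and 0 of 18 reads with 4-OHT, against 19 of 44 and 17 of 41 with ethanol. A limit of 3 counts would allow 20.0% and 16.7% of the 4-OHT reads to be spliced, and the exact intervals for the retained form reach down to 78.2% and 81.5% of reads. These are shares of reads, without the length correction.

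The retained form had 33 reads in sum with 4-OHT and 49 with ethanol, a ratio of 0.673, and the spliced form 0 and 36. The frame meets a TGA stop at base 2 of the intron, within the donor site. A transcript with this intron, Slc1a5-202, is annotated as a retained intron. The remaining pair is not listed, so its level is unknown, and no test over 2 against 2 libraries was run.

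**Figure D3:**
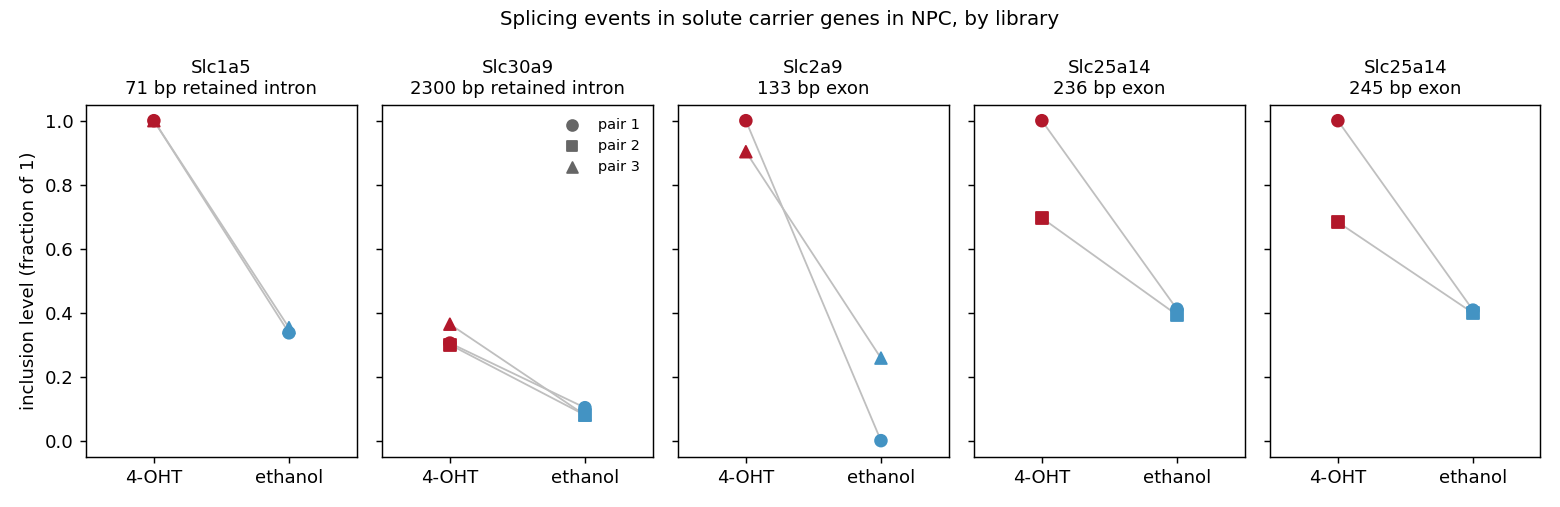
Inclusion level (fraction of 1) of the 5 events in each listed NPC library, red for 4-OHT and blue for ethanol, with lines joining libraries of a pair and marker shapes for pairs 1 to 3. In these pairs, listed for their difference, all 4-OHT libraries sit above the ethanol libraries of the same event. The Slc25a14 libraries with 4-OHT are spread widely, from 0.696 to 1 for the 236 bp exon.

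Slc2a9 was listed as risen in level and as including more of a 133 bp exon, at 38808414 to 38808546 of chromosome 5 in mm9, on the minus strand. The inclusion level was 1 and 0.903 with 4-OHT, against 0 and 0.258 with ethanol, over 2 pairs. The reads behind the ethanol values were few, 0 of 3 and 3 of 5 from the longer form, with intervals of 0 to 70.8% and 14.7 to 94.7%, while 4-OHT had 29 of 29 and 40 of 41. The intervals were 88.1 to 100% and 87.1 to 99.9% with 4-OHT, so those of pair 3 overlap. Summed inclusion reads stood at 69 with 4-OHT and 3 with ethanol, and the RPKM of the gene differed 2.47-fold.

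By its length and that of its upstream intron the Slc2a9 exon matches exon 6 of 12 in Slc2a9-202, where all 133 bases are coding. In that transcript a further exon of 188 bp, absent from the listed event, follows it. The form with this exon next to the downstream exon of 111 bp, as the event defines it, matches Slc2a9-204, which is annotated as a target of nonsense-mediated decay. The form that skips it matches Slc2a9-201. Inclusion reads do not separate the transcripts with and without the 188 bp exon.

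Slc25a14, a mitochondrial carrier of the uncoupling protein group, had 2 overlapping events on the plus strand of chromosome X. Exons of 236 and 245 bp start at 45977139 and end at 45977374 and 45977383 in mm9, and the reads of the skipped form are the same for both, so they count as 1 observation. For the shorter exon the inclusion level was 1 and 0.696 with 4-OHT, against 0.411 and 0.393 with ethanol, in pairs 1 and 2. For the longer exon it was 1 and 0.683, against 0.408 and 0.399. The arms did not overlap, in pairs listed for their difference, but the libraries with 4-OHT differed from each other by more than those with ethanol. The skipped form had 0 of 54 and 7 of 122 reads with 4-OHT, against 9 of 54 and 14 of 79 with ethanol, for the shorter exon. The shorter exon is the second exon of Slc25a14-201, where 66 of its 236 bases are coding. By its length and upstream intron it also matches protein-coding Slc25a14-204, where 0 of its bases are coding. The longer exon matches Slc25a14-202, with 75 of 245 bases coding, and Slc25a14-205, annotated as a target of nonsense-mediated decay. The skipped form matches Slc25a14-206 and Slc25a14-207, annotated as a retained intron and a processed transcript.

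**Figure D4:**
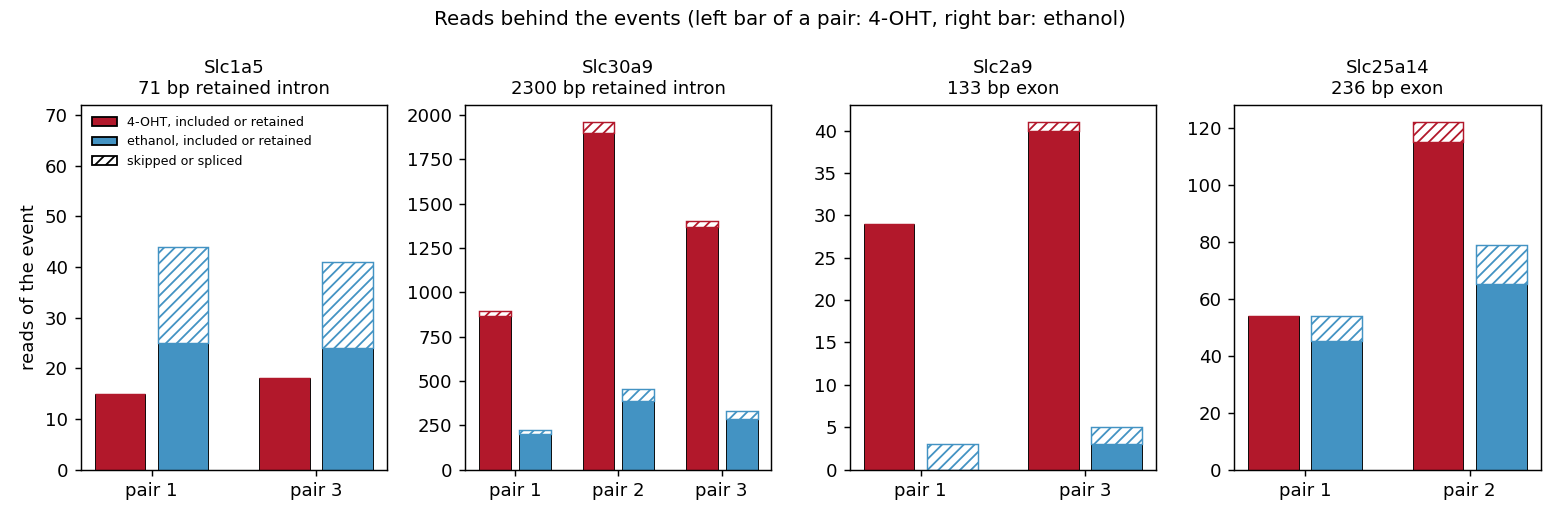
Reads behind 4 of the events by pair, each panel with its own scale, the left bar of a pair being 4-OHT and the right bar ethanol; filled bars are the included or retained form and hatched bars the skipped or spliced form. Slc30a9 gains filled bars with 4-OHT, Slc1a5 loses its hatched bars, and the ethanol bars of Slc2a9 hold 3 and 5 reads.

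Among the 55 solute carriers listed for expression in NPC, 2 also had a listed splicing event, as did 31 (1.28%) of all listed genes. They differed in direction of level, Slc1a5 being lower and Slc2a9 higher with 4-OHT.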

How the data were processed

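Per the submitters' processing notes, the tools were CASAVA 1.8, TopHat2 2.03, Bowtie2 2.0.0.6 and Cuffdiff 2.02, with build mm9. Per the file headers, the authors gave 1 RPKM per arm, a log2 fold change and a p-value for each gene. Per the file headers, the splicing tables hold the deposited count of reads for each form, the inclusion level as a fraction, its difference as a score from -1 to 1, and a p-value. That score runs ethanol minus 4-OHT and was turned round here. Slc genes were taken by symbol, and the members and lists were chosen with earlier results of these data known. Genes given with values are all in the MEF table or with an event, those with at least 5 RPKM, the 10 largest rises and falls at 1 RPKM or more, and the highest of each class, 32 in all; further members, also given, were chosen after their values were seen. Substrate classes follow the family number. The Benjamini-Hochberg adjusted p was bounded from above over each whole table, a step tested on simulated data. Log2 values were recomputed from RPKM and checked against the deposited ones. Introns and exons were matched to GENCODE M21 (GRCm38) by lengths within the gene, not by position. Promoters came from RefSeq. Python 3.11.15 and SciPy 1.17.1 were used. The planned test between cell types was not run, since no member is listed in both.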

Additional observations from a re-analysis of the deposited data

How the results depend on the processing

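Solute carriers in NPC numbered 33 where the higher arm reached 1 RPKM (23 higher), 21 where it reached 5 RPKM (13 higher and 8 lower) and 22 with an absolute log2 fold change of at least 1 (18 higher and 4 lower), so higher members outnumbered lower ones under each of these. A Bonferroni bound in place of Benjamini-Hochberg left 17 members, and counting protein-coding names alone as tested gave 40. In MEF 0 members were left, 0 higher and 0 lower, with a p under 0.01 or a log2 fold change of at least 1. Pseudocounts of 1 and 0.1 RPKM turned no member's direction, but gave an NPC median log2 fold change of 0.22 and 0.65, where it was 0.81 without one, since many members are under 1 RPKM. Without the length correction the mean difference was smaller for every event. It was 0.423 in place of 0.655 for the Slc1a5 intron and 0.102 in place of 0.235 for the Slc30a9 intron. For the Slc25a14 exons it was 0.143 in place of 0.446 (236 bp) and 0.137 in place of 0.438 (245 bp). For the Slc2a9 exon it was 0.688 in place of 0.8225. With at least 20 reads in every library, 3 events were left, without those of Slc1a5 and Slc2a9. The overlapping Slc25a14 exons among them count as 1 observation. Leaving out 1 pair gave mean differences of 0.211 to 0.252 for Slc30a9, 0.647 to 0.663 for Slc1a5, 0.645 to 1 for Slc2a9, 0.303 to 0.589 for the 236 bp and 0.284 to 0.592 for the 245 bp Slc25a14 exon. With the pair as a replicate block, the Slc30a9 mean difference was 0.235 and the exact sign-flip test gave p = 0.25, the smallest 3 pairs allow. All 3 pairs were listed for their difference, so this p is not independent of that selection. The pair codes match no label, and no other event has 3 listed pairs. Depth of expression values is unknown.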
